A study of Mus musculus with 68 samples.

Results

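Long-bone mesenchymal stromal cells from mice aged 12 months were compared between animals with 1 floxed Ezh2 allele and animals with both alleles intact, by RNA sequencing of the cultured cells. The comparison used every library labelled Ezh2 Het 12M (6 libraries, S1, S9, S11, S15, S16 and S17) and every library labelled Ezh2 WT 12M (4 libraries, S2, S6, S7 and S13), which are 10 of the 17 in the study. The labels give the Het mice as Ezh2fl/+:Prxx-1-Cre and the WT mice as Ezh2+/+:Prrx-1-Cre, so both groups carried the Cre transgene. The other 7 libraries, 4 WT 3M and 3 Het 3M, came from mice of the same genotypes aged 3 months. The labels give the WT 12M samples as 2 male and 2 female and the Het 12M samples as 1 male and 5 female, and name no batch or date. The study's text speaks of 3 biological samples per group, whereas its sample names give 4 and 6 here.

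Ezh2 is the enzyme of PRC2, the Polycomb complex that places methyl groups on lysine 27 of histone H3 and keeps developmental genes silent. In the skeleton it is known for restraining the differentiation of mesenchymal progenitors. The Prrx1 promoter drives Cre in limb bud mesenchyme, so cells of the culture that come from other lineages keep both alleles. A heterozygous deletion leaves 1 working allele, and a count per gene also includes exons outside the floxed part, so transcript counts do not measure recombination.

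The 10 libraries held between 13687876 and 28597221 counts. Transcripts of stromal cells were abundant in all of them, with Col1a1 from 1504 to 13360 CPM (counts scaled to a common library total by the trimmed mean of M values) and Prrx1 from 171 to 896 CPM, whereas defining markers of lymphoid, erythroid, epithelial and muscle cells, such as Cd3e, Hbb-bs, Epcam and Myod1, stood between 0 and 1.19 CPM. The full lists summed to 3.27 to 42.8 CPM for lymphoid and erythroid markers, with 191 CPM in Het S9, to 5.5 to 16.1 CPM for epithelial and to 8.44 to 19.5 CPM for muscle markers. In each of the 4 WT 12M libraries the sex-linked transcripts did not match the sex on the label, while those of the 6 Het 12M libraries did. For sex-linked transcripts CPM are of each library's own total, without the trimmed mean scaling. WT S2 and S13, labelled male, held 375 and 308 CPM of Xist with 0 and 0.136 CPM for the mean of 4 Y-linked genes, and WT S6 and S7, labelled female, held 28.8 and 33.7 CPM of the Y-linked genes. WT S7 also held 78.8 CPM of Xist. WT therefore means the libraries with that label. Single WT libraries and WT S6 with S7 were left out in alternatives, but leaving out all 4 would leave no WT group. Het S9 stood apart in macrophage transcripts, WT S6 in Schwann cell transcripts and WT S7 in cartilage transcripts. Het S15 stood apart in several respects, among them mitochondrial transcripts at 0.212% of counts against 1.67% to 3.72% elsewhere, and ribosomal protein and interferon-stimulated transcripts, given with those lists. The median standard deviation of log2 CPM over genes was 0.64 in Het and 0.41 in WT, and 0.46 in Het without S15. The labels do not say that each library is a separate mouse, so the tests measure spread among these cultures and not necessarily among animals.

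The deleted gene came first. Ezh2 (chr6:47530274-47595270 in GRCm38.p6) stood at 7.64, 35.7, 13.1 and 22.8 CPM in WT S2, S6, S7 and S13, the order used for WT values throughout, and at 8.62 to 25.2 CPM in Het, with a median of 18.2. The Het range lay inside the WT range. The log2 difference (Het minus WT, ± standard error) was -0.16 ± 0.36, with a 95% interval from -0.91 to 0.59 and an adjusted p of 0.924 in edgeR's quasi-likelihood test. It was 0.29 without WT S6 and -0.43 without WT S2, and between -0.30 and -0.02 without WT S7, WT S13, Het S11 or Het S15. The interval includes both no difference and a level lower by 0.91 on the log2 scale.

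Of 14897 genes tested, 0 (0%) passed an adjusted p of 0.05 in edgeR, and the lowest adjusted p was 0.143. At an unadjusted p under 0.05, 512 genes were fitted higher in Het (3.44% of those tested) and 734 lower (4.93%). All 6 Het libraries lay above all 4 WT libraries in 70 genes (0.47%) and below them in 127 genes (0.853%). With so few libraries some genes lie apart in this way by chance, so a lack of overlap is a description only. Each of the 10 libraries was also left out in turn, and 140 genes fitted higher (0.94%) and 180 fitted lower (1.21%) kept an unadjusted p under 0.05 in all 10 fits. Whatever their p, 55.66% of all genes tested were fitted higher, and counts of list members fitted higher are to be read against that share. DESeq2 called 102 genes, 24 of them higher, and limma voom with sample quality weights called 171, 31 of them higher. Both called 43 genes, which is 42.2% of the DESeq2 calls and 25.1% of the voom calls. None of the genes named below passed edgeR's test, so their values are given as levels and fitted differences, and the words higher and lower describe the fit.

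The genes fitted higher with the smallest p had varied roles. Vmp1 (chr11:86583858-86683836), an endoplasmic reticulum protein needed to form autophagosomes, stood at 128, 187, 156 and 169.7 CPM in WT and at 213 to 366 CPM in Het, with a median of 277. Ostm1 (chr10:42678916-42702462), a partner of the lysosomal chloride transporter ClC-7 and essential in osteoclasts, stood at 43.5, 44.8, 39.2 and 49 CPM in WT and at 51.4 to 95 CPM in Het, with a median of 76.6. Neither gene overlapped between the groups, and their log2 differences were 0.82 ± 0.19 and 0.78 ± 0.17 with edgeR adjusted p of 0.182 for both. Atg12, a ubiquitin-like protein of autophagosome growth, was 38.8 to 52.3 CPM in WT and 55.1 to 83 in Het, again without overlap. Chmp5, of the membrane-cutting ESCRT-III complex, overlapped between Het S16 at 101 CPM and WT S7 at 102, with a log2 difference of 0.72 ± 0.17.

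Eya1 (chr1:14168953-14311035), a phosphatase and transcriptional coactivator of organ development, had the smallest p among the named genes fitted higher and stood at 3.44, 2.21, 2.11 and 1.52 CPM in WT and 5.76 to 19.1 CPM in Het, with a median of 7.05. The groups did not overlap, the log2 difference was 1.95 ± 0.36 and the edgeR adjusted p was 0.143. Fst encodes follistatin, which binds and blocks activins, and stood at 132, 147, 235 and 169 CPM in WT and 189.9 to 769.6 CPM in Het, with a median of 513. Het S9 alone fell within the WT range of Fst, and the log2 difference was 1.5 ± 0.37. Btg2, an antiproliferative gene induced by p53 and by growth factors, was 85.9 to 111 CPM in WT and 144 to 419 in Het without overlap, a log2 difference of 1.38 ± 0.37. The phosphatase gene Ptp4a1, at 0.94 ± 0.24, and Snrnp48, of the minor spliceosome, at 0.70 ± 0.18, were also without overlap. Ly6f and Pcdh11x were close to the detection limit, with 10 and 5 counts over the 4 WT libraries and 120 and 75 over the 6 Het libraries.

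**Figure D1:**
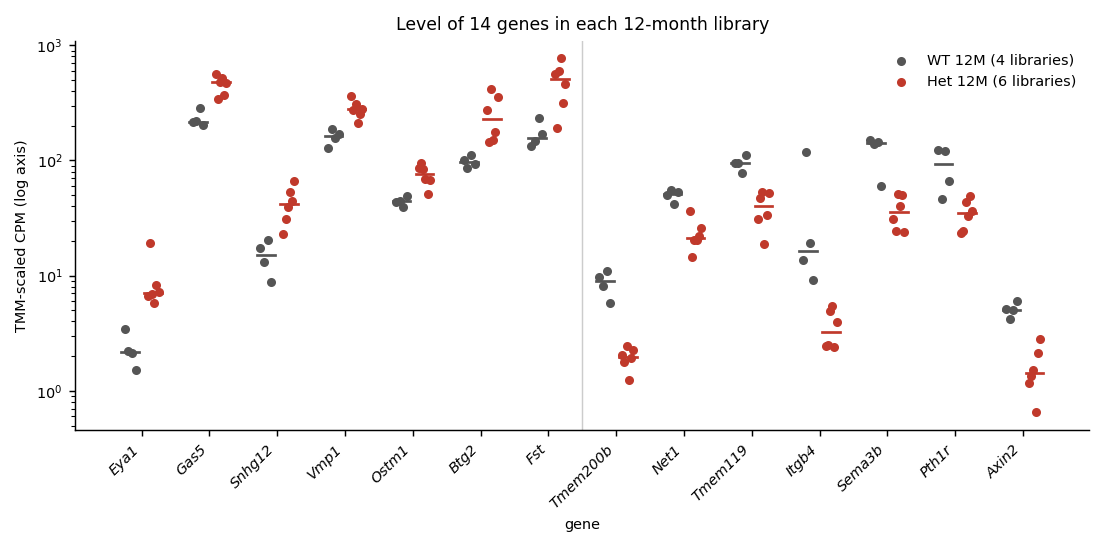
Level of 14 genes in each 12-month library, in TMM-scaled CPM on a log axis, with 1 point per library and a line at each group's median. Genes left of the vertical line were fitted higher in Het and genes right of it lower; Fst and Pth1r are the 2 shown whose groups overlap.

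The genes fitted lower with the smallest p had varied roles as well. Tmem200b (chr4:131919971-131923956), a membrane protein gene, stood at 9.76, 8.12, 11.1 and 5.84 CPM in WT and at 1.24 to 2.45 CPM in Het, with a median of 1.97. Its groups were well apart, with a log2 difference of -2.16 ± 0.38 and an edgeR adjusted p of 0.143, the lowest value any gene reached. Net1, an exchange factor for the GTPase RhoA, stood at 49.8, 55.2, 42.3 and 53.5 CPM in WT and 14.5 to 36.2 CPM in Het, with a median of 21.2, a difference of -1.11 ± 0.22 without overlap. Tmem119, a membrane protein that promotes osteoblast differentiation, stood at 94.5, 95.6, 77.2 and 113 CPM in WT and 18.9 to 52.8 CPM in Het, with a median of 40.5, a difference of -1.27 ± 0.25 without overlap. Gpc1, a glypican that carries heparan sulphate at the cell surface, was 165 to 554 CPM in WT and 52.6 to 140.1 in Het. Its groups did not overlap either, nor did those of Fjx1, a Golgi protein related to four-jointed of the fly, at -1.53 ± 0.31, and of Fam102a at -1.17 ± 0.26.

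In other genes of that group the size moved with 1 WT library. Itgb4, the beta subunit of a laminin receptor, stood at 13.7, 119, 19.3 and 9.12 CPM in WT and 2.38 to 5.43 CPM in Het, with a median of 3.24, without overlap. Its difference of -3.48 ± 0.60 was -1.96 without WT S6. Sema4f, a transmembrane semaphorin, moved likewise from -4.16 ± 0.77 to -1.63 without WT S6, and Gldn, which encodes gliomedin of Schwann cell nodes, from -4.86 ± 1.02 to -2.95. WT S6 held 38.4 CPM of Sema4f and 184 CPM of Gldn, and also 231 CPM of Sox10, the defining factor of Schwann cells, against at most 1.90 CPM in any other library. The part of such cells in these 3 differences was not tested. Car3, a carbonic anhydrase gene, stood at 256 CPM in WT S2 and at 0.24 to 4.53 in the other WT libraries, and its difference moved from -8.53 ± 1.69 to -3.60 without WT S2. For Ecel1, Ppp1r1b and Otos the 6 Het libraries held 3, 1 and 1 counts in all, against 255, 87 and 98 counts over the 4 WT libraries. Ecel1 had 10, 179, 2 and 64 counts in the WT libraries, Ppp1r1b 47, 1, 37 and 2, and Otos 25, 4, 62 and 7. Serpind1, which encodes a serine protease inhibitor of plasma, had 8 counts in Het and 134 in WT, of which WT S2 and S7 held 38 and 82.

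A broad set of related genes on the higher side belonged to the integrated stress response. In this pathway phosphorylation of the initiation factor eIF2 slows translation while the transcription factor Atf4 is made, and Atf4 with its partners switches on genes for amino acid import, amino acid synthesis and transfer RNA charging. Of 41 tested members of the list, 39 were fitted higher and 2 lower, with a median log2 difference of 0.50 beside 0.05 over all genes tested. At an unadjusted p under 0.05, 13 of the 41 were fitted higher and 0 lower, where the share of all genes was 3.44% and 4.93%. Of these, 8 kept it in all 10 fits that left out a library, against 0.94% of all genes. The median stayed between 0.43 and 0.60 in those fits. The summed level of the list was 2785 to 3284 CPM in WT and 3639 to 5246 CPM in Het, so it did not overlap. The mean log2 CPM of its members did overlap, with WT S6 at 5.36 and Het S15 at 5.34.

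Over the list, 3 of the 41 tested members lay higher in Het without overlap, against 0.47% of all genes. Transcription factors of the pathway are given first. Atf4, which is controlled mainly by translation, was 71 to 108 CPM in WT and 95.4 to 157 in Het, a log2 difference of 0.45 ± 0.25. Its dimer partner Cebpg stood at 40.7, 39.7, 38.1 and 41.7 CPM in WT and 46.7 to 72.6 CPM in Het, with a median of 53.5, without overlap, a difference of 0.47 ± 0.16. Ddit3, which encodes CHOP, a factor linked to cell death under prolonged stress, stood at 32.4, 7.92, 34.9 and 11.3 CPM in WT and 35.5 to 65.1 CPM in Het, with a median of 47, without overlap, a difference of 1.21 ± 0.43. Atf3 reached 82.7 CPM in Het S9 against 0.589 to 19.6 in the other Het libraries, and its difference of 2.00 ± 0.99 was 0.75 without that library.

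Feedback regulators and enzymes were fitted higher as well. Ppp1r15a (GADD34) directs the phosphatase that reverses eIF2 phosphorylation and stood at 31.4, 57.3, 43.3 and 36.1 CPM in WT and 52.7 to 151 CPM in Het, with a median of 70.1, with a difference of 1.12 ± 0.37. Only Het S16 among the Het libraries lay below the highest WT library. Trib3, a pseudokinase that restrains Atf4, was 2.42 to 17.4 CPM in WT and 9.88 to 60.5 in Het, a difference of 1.85 ± 0.64 with overlap in Het S15 alone. Cth, which makes cysteine, was at 1.15 ± 0.38, Psph, the last step of serine synthesis, at 0.73 ± 0.26, and Pck2, a mitochondrial carboxykinase, at 0.58 ± 0.21 and without overlap. The edgeR adjusted p of Ppp1r15a, Trib3, Cth, Psph and Pck2 was at least 0.395. Amino acid transporters of the list stood at 0.96 ± 0.39 for Slc7a5 and 1.13 ± 0.46 for Slc7a11, and the asparagine synthetase gene Asns at 0.66 ± 0.35. Chac1, which degrades glutathione, Aldh1l2, of mitochondrial folate metabolism, and the lipoprotein receptor gene Vldlr were at 1.11 ± 0.51, 1.38 ± 0.63 and 1.14 ± 0.41. For each of Slc7a11, Aldh1l2 and Vldlr, Het S15 lay below all 4 WT libraries. Gdf15, a secreted stress hormone that is also a p53 target, was 129 and 151 CPM in Het S9 and S15, and 6.39 to 22 in the other Het libraries, beside 5.42 to 18.9 in WT.

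Promoters of 3 of these genes are shown because they hold the composite element that Atf4 and C/EBP proteins bind. The element was searched as TGATGNAA on both strands of the 250 bases before each RefSeq start in GRCm38.p6, and its matches are in capitals within stretches of 120 bases read along the gene's strand. The 3 were picked after values were seen.
Chac1 (chr2:119350993-119351112, plus strand): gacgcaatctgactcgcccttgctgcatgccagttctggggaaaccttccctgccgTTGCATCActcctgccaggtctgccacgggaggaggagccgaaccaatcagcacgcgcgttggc
Atf3 (chr1:191183380-191183499, minus strand): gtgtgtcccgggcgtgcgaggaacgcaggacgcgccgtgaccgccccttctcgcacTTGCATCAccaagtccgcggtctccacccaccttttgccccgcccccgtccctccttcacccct
Slc7a11 (chr3:50443614-50443733, minus strand): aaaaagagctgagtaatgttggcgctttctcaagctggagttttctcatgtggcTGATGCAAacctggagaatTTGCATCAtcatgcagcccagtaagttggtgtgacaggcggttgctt
Of 42 promoters listed for members of the pathway, 9 held the element (21.4%), against 3.45% of all 32851 promoters and 2.01% of those of tested genes. The list holds genes known for this response, so that share says nothing about these libraries. The same holds for the elements of the other lists below. The 9 genes with the element had a median log2 difference of 0.66 and the 24 without it in this window 0.44. Only 33 of the 41 tested members had a promoter listed and entered this split. Slc7a11, which imports cystine, held 2 matches and stood at 1.32 to 2.64 CPM in WT and 1.11 to 6.71 in Het.

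Genes induced by hypoxia formed another such set. When oxygen is short, the alpha subunits of hypoxia-inducible factor (HIF) escape hydroxylation by the Egln enzymes and turn on genes for glycolysis, collagen hydroxylation, mitophagy and vessel growth. Of 36 tested members, 30 were fitted higher and 6 lower, with a median log2 difference of 0.48 and a range from 0.38 to 0.61 without single libraries. At an unadjusted p under 0.05, 14 were fitted higher and 1 lower, where the shares of all genes were 3.44% and 4.93%. On the higher side 11 kept it in all 10 fits (0.94% of all genes) and 4 did not overlap between the groups (0.47%). The libraries differed within Het: the summed level of the list was 8063 to 12500 CPM in S1, S11, S16 and S17, and 3575 and 2672 CPM in S9 and S15, below the 4875 to 6110 CPM of WT. Het S9 held 50110 CPM of macrophage transcripts and Het S15 the fewest mitochondrial ones, and their part in this difference was not tested.

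Several targets have roles in mitochondria. Bnip3, a mitophagy receptor, stood at 31.4, 12.2, 28.5 and 20.2 CPM in WT and 36 to 86.9 CPM in Het, with a median of 51.2. The groups did not overlap, with a difference of 1.31 ± 0.38 and an edgeR adjusted p of 0.308. Its relative Bnip3l was at 0.60 ± 0.21, Pdk1, which keeps pyruvate out of mitochondria, at 1.12 ± 0.38, and Higd1a and Fam162a, both small mitochondrial proteins, at 0.96 ± 0.36 and 1.20 ± 0.42. Ankrd37, a small direct HIF target, stood at 0.746, 0.384, 0.747 and 1.04 CPM in WT and 1.09 to 7.98 CPM in Het, with a median of 2.56, without overlap and at 2.18 ± 0.59. Ak4, an adenylate kinase of mitochondria, was 7.12 to 8.96 CPM in WT and 9.39 to 24.2 in Het, without overlap.

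Other targets act on secreted proteins, chromatin and vessels. Ero1a, which oxidises disulphide bonds in the endoplasmic reticulum, stood at 28.1, 31.1, 24.6 and 31.7 CPM in WT and 35.1 to 111 CPM in Het, with a median of 65, without overlap, at a difference of 1.20 ± 0.35. P4ha1 and P4ha2, subunits of the collagen prolyl hydroxylase, were at 0.89 ± 0.29 and 0.88 ± 0.31. Kdm3a, a demethylase of lysine 9 of histone H3, stood at 27.4, 22.7, 25.8 and 22.1 CPM in WT and 25.9 to 51.7 CPM in Het, with a median of 43.3, at 0.74 ± 0.21, and only Het S15 fell within the WT range. Narf was at 1.08 ± 0.30 and the vessel growth factor Vegfa at 0.90 ± 0.36. The member at an unadjusted p under 0.05 on the lower side was the glucose transporter Slc2a3, at -1.45 ± 0.56, and -0.36 without WT S6, which held 14.7 CPM.

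The subunits of HIF itself overlapped between the groups with 1 exception. Hif1a and Epas1, which encode alpha subunits, were at 0.43 ± 0.46 and 0.30 ± 0.27. Hif1a was 0.24, 0.17 and 0.23 without WT S6, Het S1 or Het S16, and Epas1 was 0.07 without WT S13 and 0.19, 0.20 and 0.19 without Het S1, S16 or S17. Egln1, the main oxygen sensor and itself a HIF target, was 54.2 to 77.6 CPM in WT and 68.9 to 124 in Het, a difference of 0.44 ± 0.24. The exception was Arnt2, a beta subunit best known from neurons, at 54.2, 73.2, 77.4 and 38.6 CPM in WT and 11.5 to 37.8 CPM in Het, with a median of 29.2, a difference of -1.08 ± 0.36. Of 12 tested HIF subunits and oxygen sensors, 9 were fitted higher, with a median of 0.22 and of 0.09 without WT S13. Of 23 glycolytic enzymes 18 were fitted higher, with a median of 0.24 that was 0.09 without WT S7, 0.50 without WT S13, 0.16 without WT S2, and 0.41 and 0.36 without Het S15 or S16. Pfkl, a subunit of phosphofructokinase, was 72.4 to 94.2 CPM in WT and 99.8 to 235 in Het without overlap, while the aldolase and enolase genes Aldoc and Eno1, at 3.18 ± 0.96 and 0.97 ± 0.37, each overlapped in 3 Het libraries.

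Promoters of 4 hypoxia-induced genes are shown for the core of the hypoxia response element, searched as ACGTG on both strands of the same windows, with matches in capitals. They were picked after values were seen.
Bnip3 (chr7:138909552-138909671, minus strand): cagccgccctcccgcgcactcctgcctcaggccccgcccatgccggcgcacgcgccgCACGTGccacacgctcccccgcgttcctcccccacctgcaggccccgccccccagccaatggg
Ero1a (chr14:45318574-45318693, minus strand): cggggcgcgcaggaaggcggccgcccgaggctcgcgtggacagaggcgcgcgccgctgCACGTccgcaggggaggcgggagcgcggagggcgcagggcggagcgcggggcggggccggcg
Ankrd37 (chr8:45999851-45999970, minus strand): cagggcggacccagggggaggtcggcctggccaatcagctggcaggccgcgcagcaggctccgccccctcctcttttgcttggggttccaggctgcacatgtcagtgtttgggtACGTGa
P4ha1 (chr10:59323176-59323295, plus strand): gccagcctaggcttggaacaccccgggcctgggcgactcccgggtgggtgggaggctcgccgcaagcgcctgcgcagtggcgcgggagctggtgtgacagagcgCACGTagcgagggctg
The core was in 19 of 41 promoters listed for members (46.3%), against 16.57% of all promoters and 20.89% of those of tested genes. The 17 genes with it had a median log2 difference of 0.88 and the 11 without it in the window 0.51. Only 28 of the 36 tested members had a promoter listed, so both medians lie above the 0.48 of the whole list. In Bnip3 the 2 matches are 1 palindrome read on both strands, and Ankrd37 held another match outside the stretch shown.

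**Figure D2:**
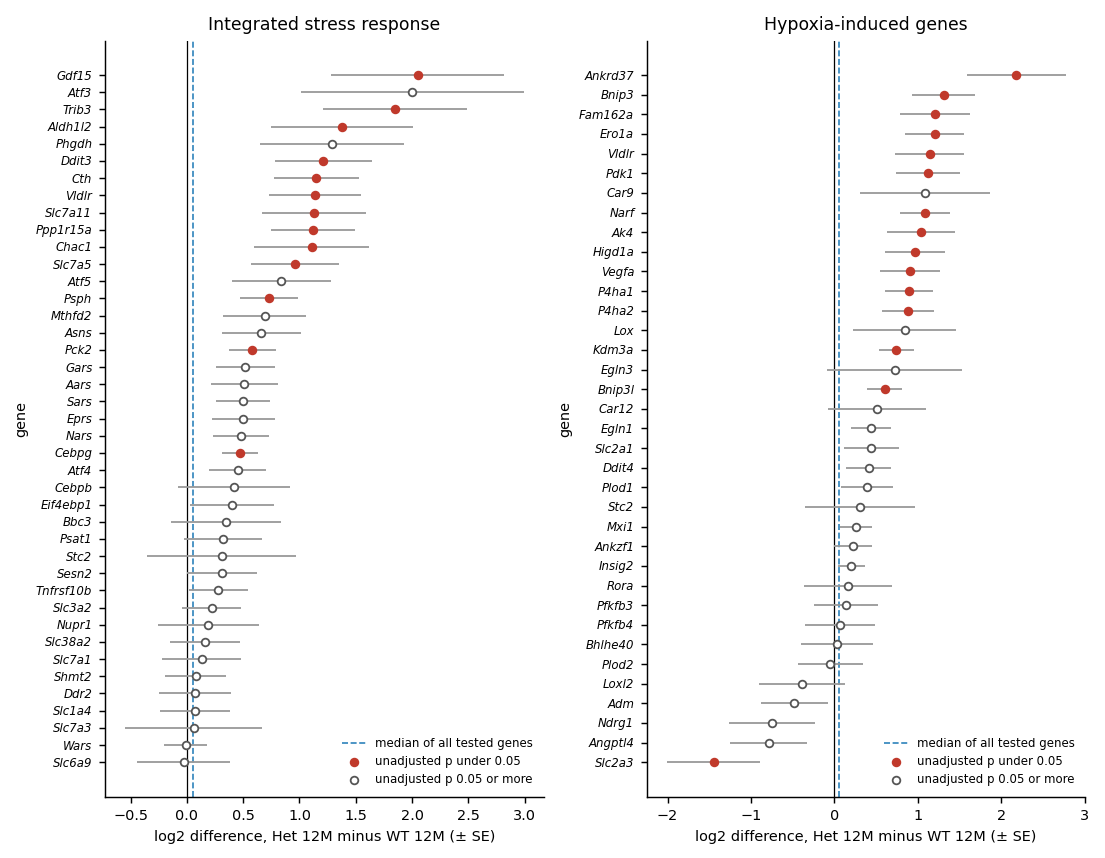
Log2 difference (Het 12M minus WT 12M, ± SE) of each tested member of the integrated stress response list (left) and of the hypoxia-induced list (right), with filled points at an unadjusted p under 0.05 and a dashed line at the median of all genes, 0.05. Of 41 members on the left 39 lie right of 0, and of 36 on the right 30.

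The unfolded protein response of the endoplasmic reticulum, which shares the eIF2 kinase Perk with the integrated stress response, was compared as well. Of 29 tested sensors and chaperones 19 were fitted higher and 10 lower, with a median of 0.15 that was 0.23 without WT S7 and 0.10 without WT S6. Of the 29, 1 was fitted higher and 1 lower at an unadjusted p under 0.05, near the shares of all genes. The chaperone gene Hspa5 stood at 1090, 719.9, 1111 and 1261 CPM in WT and 1137 to 2025 CPM in Het, with a median of 1433, a difference of 0.53 ± 0.22 with overlap. The lower gene was Fkbp11, a proline isomerase of secretory cells also listed for osteoblasts, at 59.9, 59.5, 82.4 and 84.7 CPM in WT and 24.5 to 58 CPM in Het, with a median of 36.6, without overlap and at -0.91 ± 0.21. The endoplasmic reticulum stress element, CCAAT and CCACG with 9 bases between them, was searched on both strands. It was in 9 of 26 promoters of this list (34.6%) and in 0.11% of all promoters. The 9 genes with it had a median of 0.15 and the 16 without it 0.14, over the 25 of 29 tested members with a promoter listed. The element is shown for Hspa5, the main chaperone of the list, chosen after values were seen.
Hspa5 (chr2:34771970-34772089, plus strand): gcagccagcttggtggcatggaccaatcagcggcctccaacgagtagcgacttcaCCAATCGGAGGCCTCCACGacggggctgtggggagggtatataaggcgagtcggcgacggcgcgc

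Noncoding host genes of small nucleolar RNAs, whose spliced transcripts are degraded by a translation-dependent pathway, were fitted higher in 16 of 19 tested. Their median was 0.80, and 0.31 without Het S15, the library with 4.19% of counts from ribosomal proteins against 0.982% to 1.73% in the others. Gas5, which accumulates when growth stops, stood at 215, 219.6, 288 and 204 CPM in WT and 344 to 560.5 CPM in Het, with a median of 477. Snhg12 stood at 17.2, 13.2, 20.4 and 8.84 CPM in WT and 23 to 66 CPM in Het, with a median of 41.9. Neither overlapped between the groups, with differences of 0.98 ± 0.23 and 1.52 ± 0.32 and an edgeR adjusted p of 0.182 for both. Without Het S15 these were 0.93 and 1.44. Snhg1 and Snhg7 were at 1.06 ± 0.31 and 1.49 ± 0.44.

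Targets of p53, a transcription factor activated by DNA damage and other stress, were fitted higher in 28 of 34 tested, with a median of 0.29 and a range from 0.25 to 0.36 without single libraries. At an unadjusted p under 0.05, 7 were fitted higher and 0 lower, where the shares of all genes were 3.44% and 4.93%. In all 10 fits 2 members kept that p on the higher side (0.94% of all genes). Besides Btg2, Plk2 did not overlap between the groups, at 72.3, 127, 118 and 143 CPM in WT and 143 to 416 CPM in Het, with a median of 173, a difference of 0.93 ± 0.29. Zmat3 was at 0.51 ± 0.20, and the cell cycle inhibitor Cdkn1a overlapped widely, at 278 to 512 CPM in WT and 353 to 814 in Het. Immediate-early genes, switched on within minutes by growth factors or handling, were fitted higher in 25 of 35 and had a median of 0.41, and 0.20 and 0.27 without Het S15 or S17. Nr4a1, an orphan nuclear receptor of this class, was at 1.89 ± 0.80. Fos, of the AP-1 factor, was 59.1 to 106 CPM in WT and 658 in Het S9, and its difference of 1.42 ± 0.48 was 0.75 without Het S9.

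Lysosomal genes were fitted higher in 37 of 44 tested. At an unadjusted p under 0.05, 9 were higher and 0 lower, where the shares of all genes were 3.44% and 4.93%. Their median of 0.43 was 0.12 without Het S9, the macrophage-rich library, and of the 9 Ostm1 alone kept its unadjusted p under 0.05 in all 10 fits. Atp6v0d1, a subunit of the proton pump that acidifies lysosomes, was at 0.52 ± 0.22. The list of autophagy and mitophagy genes had 25 of 36 members fitted higher and a median of 0.10 that was 0.17 without Het S15. Atg12 and Bnip3 were the 2 members without overlap (0.47% of all genes on that side), and Atg3, which conjugates the LC3 proteins, was at 0.43 ± 0.17.

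On the lower side stood 8 genes of Wnt signalling, a pathway that drives bone formation and induces its own inhibitors. Axin2 (chr11:108917828-108950783), the usual readout of beta-catenin activity, stood at 5.11, 4.23, 5.05 and 5.99 CPM in WT and 0.654 to 2.79 CPM in Het, with a median of 1.43. The groups did not overlap, with a difference of -1.66 ± 0.41 and an edgeR adjusted p of 0.216. Tcf7, a DNA-binding partner of beta-catenin, stood at 4.54, 12.2, 5.19 and 1.95 CPM in WT and 0.311 to 2.38 CPM in Het, with a median of 1.21, with overlap in Het S16 alone, at -2.31 ± 0.57. Apcdd1, a membrane inhibitor of Wnt proteins that is not among the list's members, was 10.3 to 32.4 CPM in WT and 6.15 to 11.4 in Het, at -1.48 ± 0.31. Notum, a secreted enzyme that inactivates Wnt proteins, was at -2.07 ± 0.60, and -0.88 without WT S13. The ligand Wnt5b was at -0.89 ± 0.28. Over the list's 54 tested genes, 22 were fitted higher and 32 lower, with 0 higher and 8 lower at an unadjusted p under 0.05. Over all genes the shares at that p were 3.44% and 4.93%. In all 10 fits 3 members kept that p on the lower side (1.21% of all genes). The median was -0.17, and -0.06 and -0.08 without WT S7 or S2.

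Hedgehog signals, which act in growth plates and nerves, came next. Of 15 tested Hedgehog genes 13 were fitted lower, with a median of -0.49 that stayed between -0.53 and -0.33 without single libraries. At an unadjusted p under 0.05, 4 were lower (4.93% of all genes), and 0 kept that p in all 10 fits (1.21% of all genes). The signal transducer Smo was 151 to 180.4 CPM in WT and 53.9 to 151 in Het, with Het S17 at the lower end of the WT range, at -0.60 ± 0.23. The target genes Gli1 and Ptch1 were at -1.23 ± 0.56 and -0.40 ± 0.37, and -0.59 and -0.24 without WT S6, and Ptch1 was -0.20 without Het S15. The ligand gene Dhh, which Schwann cells express, was 18.7 CPM in WT S6 and 0.475 to 1.23 in the other WT libraries. Of 60 genes of BMP and TGF-beta signalling 24 were fitted higher and 36 lower, with a median of -0.17, between -0.22 and -0.05 without single libraries. Bambi, a decoy receptor of that family, was at -0.79 ± 0.26, and the latent TGF-beta binding protein gene Ltbp4 at -1.34 ± 0.41, or -0.63 without WT S6.

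Guidance genes, which steer axons in the embryo and also act between bone cells, were divided. Of 30 tested semaphorins, plexins and neuropilins 14 were fitted higher and 16 lower, with 1 higher and 8 lower at an unadjusted p under 0.05. Over all genes the shares at that p were 3.44% and 4.93%. The median was -0.20, and 0.19 without WT S6, -0.34 without Het S1 and -0.56 without Het S16. Sema3b stood at 149, 140.1, 144 and 60 CPM in WT and 24.1 to 51.1 CPM in Het, with a median of 35.5, without overlap and at -1.75 ± 0.41. Plxnb1, the receptor through which Sema4d restrains osteoblasts, stood at 24.5, 42.6, 39.5 and 4.18 CPM in WT and 3.21 to 9.36 CPM in Het, with a median of 4.64, where WT S13 alone lay in the Het range, at -2.39 ± 0.50. Sema6b was at -1.35 ± 0.47. Of 35 ephrin, slit and netrin genes 12 were fitted higher and 23 lower, with a median of -0.10, between -0.19 and -0.05 without single libraries. Ntn4, a basement membrane netrin, stood at 69.6, 140, 54.5 and 83.8 CPM in WT and 12.8 to 48.1 CPM in Het, with a median of 25.4, without overlap and at -1.64 ± 0.41, and Epha4, an ephrin receptor, was on the higher side at 1.45 ± 0.55.

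Lists of skeletal cell types differed in direction. Adipocyte genes were fitted higher in 11 of 19 and stromal progenitor genes in 11 of 25, with medians of 0.15 (-0.08 to 0.19 without single libraries) and -0.14 (-0.27 to -0.03). Of 21 tested osteoblast genes 6 were fitted higher and 15 lower, with a median of -0.34, or -0.12 without Het S15. At an unadjusted p under 0.05, 4 were lower, where the share of all genes was 4.93%. Pth1r (chr9:110722085-110747145), the parathyroid hormone receptor, stood at 122, 46.1, 120.1 and 65.9 CPM in WT and 23.6 to 49.4 CPM in Het, with a median of 35. The ranges met only between WT S6 and Het S16, and the difference was -1.33 ± 0.29 with an edgeR adjusted p of 0.182. Smpd3, a sphingomyelinase needed for mineralisation, was 8.27 to 13.2 CPM in WT and 1.74 to 6.46 in Het, without overlap and at -1.16 ± 0.48. Dmp1, a matrix protein of osteocytes, was at -1.79 ± 0.74, and -0.91 without WT S7.

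Of 32 tested cartilage genes 28 were fitted lower, with 15 at an unadjusted p under 0.05 (4.93% of all genes) and a median of -1.81. That median was -0.81 without WT S7, whose summed level of the list was 32130 CPM against 4756 to 16900 CPM elsewhere. In all 10 fits 5 members kept an unadjusted p under 0.05 on the lower side (1.21% of all genes). Mdk, the growth factor midkine, stood at 84.2, 42.5, 60.3 and 39 CPM in WT and 6.23 to 34.4 CPM in Het, with a median of 15.6, without overlap and at -1.85 ± 0.41, and -1.81 without WT S7. Frzb, a Wnt-binding protein of joint cartilage, was 15.3 to 135 CPM in WT and 5.38 to 32.8 in Het, at -2.04 ± 0.55 and -1.29 without WT S7. In these bulk cultures, fewer cells of a type and less RNA per cell cannot be told apart.

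Beside Ezh2, the genes of the Polycomb system and of classes it is known to silence were compared. Of 14 tested PRC2 subunits 10 were fitted higher and 4 lower, with a median of 0.16, between 0.04 and 0.25 without single libraries. Eed, the subunit that binds methylated lysine 27 and stimulates the enzyme, stood at 30.1, 33, 30.2 and 40.8 CPM in WT and 41.7 to 60.2 CPM in Het, with a median of 44.3. The groups did not overlap, with a difference of 0.49 ± 0.17 and an edgeR adjusted p of 0.425. The paralogue Ezh1, at -0.42 ± 0.30, was -0.23 without WT S2, -0.67 without WT S6 and -0.14 without WT S7. The core subunit Suz12, at 0.20 ± 0.29, was -0.01 without Het S1 and 0.07 without WT S2. Of 20 subunits of PRC1, the complex that reads the mark, 8 were fitted higher and 12 lower, with a median of -0.14, between -0.17 and -0.02 without single libraries.

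Hox genes, a textbook class of PRC2 targets, were divided. Of 35 tested Hox genes 18 were fitted higher and 17 lower, with a median of 0.03, between -0.06 and 0.18 without single libraries. Hoxb4 was at 1.78 ± 0.73, or 1.05 without Het S11, while Hoxc11 and Hoxa13 were at -1.14 ± 0.48 and -2.36 ± 1.04, and Hoxa13 was -3.57 without Het S16. Of 62 other developmental transcription factors 25 were fitted higher and 37 lower, with a median of -0.23, or -0.44 without Het S16 and -0.36 without Het S15. Of these, 3 were fitted higher and 11 lower at an unadjusted p under 0.05, where the shares of all genes were 3.44% and 4.93%. Without overlap were 2 higher and 3 lower members (0.47% and 0.853% of all genes). In all 10 fits 2 higher and 3 lower members kept that p (0.94% and 1.21% of all genes). Besides Eya1, Meis1, a Hox cofactor, was without overlap on the higher side, at 7.87, 8.93, 8.48 and 6.41 CPM in WT and 10.2 to 16.3 CPM in Het, with a median of 13.1, a difference of 0.72 ± 0.20. The lower members without overlap were the homeobox genes Dlx1, Dlx3 and Dlx4, of which Dlx3 and Dlx4 are named because their values were seen. Dlx1 was at -2.75 ± 0.69 and -1.16 without WT S6, Dlx3 at -2.43 ± 0.74 and -1.52 without WT S13, and Dlx4 at -1.91 ± 0.69. Of 7 tested inhibitors of cyclin-dependent kinases, a class that includes the Polycomb-silenced Ink4 genes, 4 were fitted higher, with a median of 0.12, between -0.19 and 0.23 without single libraries, and Cdkn1c was at -1.82 ± 0.79, or -0.83 without WT S2.

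Several other lists moved mainly with 1 library. Of 27 macrophage and myeloid markers 26 were fitted higher, with a median of 2.05 that was -0.47 without Het S9 and 3.18 without WT S2. The summed level of these markers was 50110 CPM in Het S9, 50.3 to 3203 CPM in the other Het libraries and 61.4 to 3825 CPM in WT. Interferon-stimulated genes were fitted higher in 41 of 44, at 0.84, and at -0.12 without Het S15, whose summed level of 12570 CPM compared with 874.5 to 2547 CPM in the rest. Genes of antigen presentation by class I molecules were at 0.65 and 0.12 without Het S15, or 0.41 without Het S9. Cytosolic ribosomal proteins and nuclear genes of oxidative phosphorylation, at 0.47 and 0.29, stood at 0.01 and -0.07 without Het S15.

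On the other side, 16 of 18 Schwann and neural crest markers were fitted lower, at -1.54 and -0.19 without WT S6, or -2.33 without Het S15. WT S6 held 2290 CPM of them against 582 to 1101 CPM elsewhere. Genes of DNA replication were fitted lower in 32 of 35 and of mitosis in 30 of 34, with medians of -0.57 and -0.39. Without WT S6 these were -0.14 and 0.30, and without WT S13 the first was -0.32. The mitosis median was -0.65 without WT S2 or S7 and -0.23 without Het S11. Of 14 endothelial markers 11 were fitted lower, at -0.57 and -0.03 without WT S7, and between -0.92 and -0.34 without WT S13, Het S1 or Het S11, with a summed level of 9.16 to 31.8 CPM over all libraries. By contrast, the medians of the integrated stress response, hypoxia, p53 and Hedgehog lists moved by less than 1.5 times whichever library was left out. Their members were less alike: 8, 11, 2 and 0 of them kept an unadjusted p under 0.05 in all 10 fits. Over all genes that share was 0.94% on the higher and 1.21% on the lower side.

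**Figure D3:**
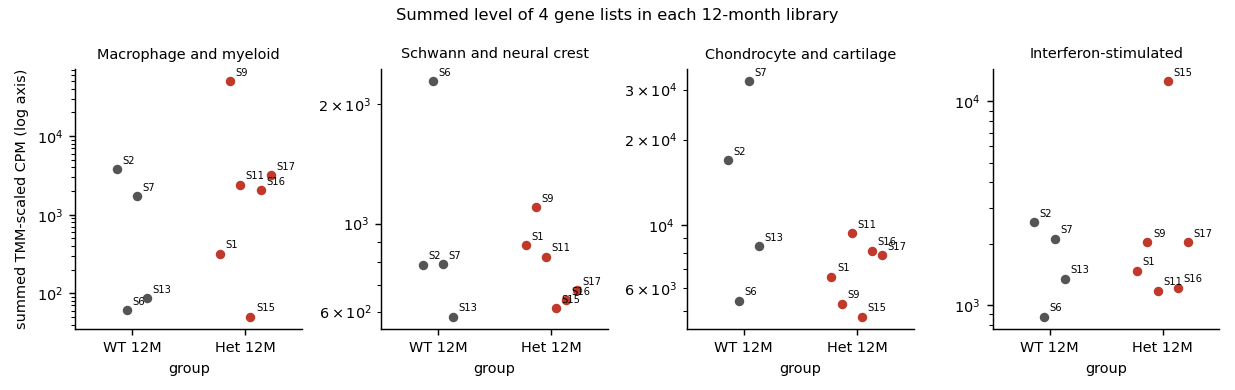
Summed TMM-scaled CPM (log axis) of 4 gene lists in each 12-month library, labelled by its number. Het S9 stands at 50110 CPM for macrophage markers, WT S6 at 2290 CPM for Schwann markers, WT S7 at 32130 CPM for cartilage genes and Het S15 at 12570 CPM for interferon-stimulated genes.

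**Figure D4:**
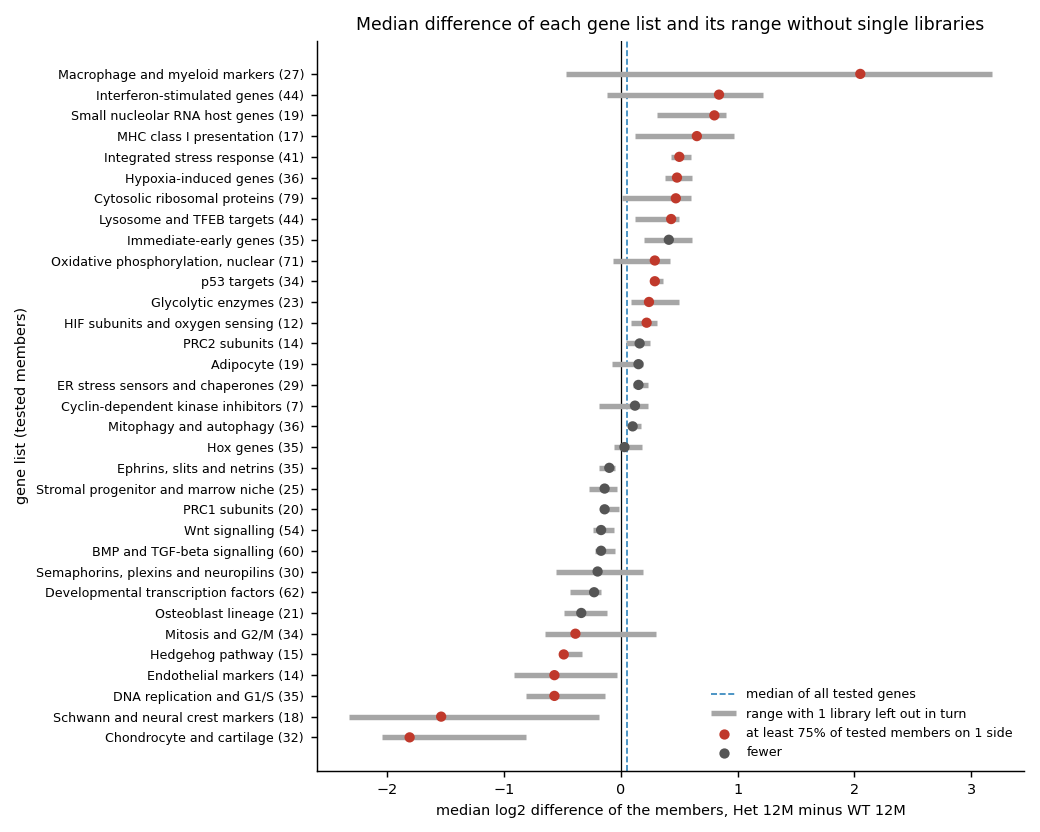
Median log2 difference (Het 12M minus WT 12M) of the members of 33 of the 49 gene lists. The number tested is in brackets, and a grey bar gives the range of that median when each library was left out in turn. Red points mark lists with at least 75% of members on 1 side. The bars of the integrated stress response and hypoxia lists span 0.43 to 0.60 and 0.38 to 0.61, while that of the macrophage markers spans -0.47 to 3.18.

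The same genotypes at 3 months, 4 WT and 3 Het libraries, gave a second contrast that shares no library with the first. The difference between the 2 contrasts was tested in the same fit, and 0 of 14897 genes (0%) passed an adjusted p of 0.05 in edgeR, where the lowest was 0.498. At an unadjusted p under 0.05 there were 858 genes, 373 with the larger value at 12 months and 485 with the smaller, while DESeq2 called 36 and voom 939. Pth1r was -1.33 ± 0.29 at 12 months and 1.11 ± 0.34 at 3 months, a difference between ages of -2.45 ± 0.45. Fkbp11 was -0.91 ± 0.21 and 0.74 ± 0.25, a difference of -1.65 ± 0.33. Both genes of the osteoblast list had fitted values of opposite sign at the 2 ages, with an edgeR adjusted p of the difference of 0.498 for each.

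On the higher side, Vmp1 was 0.82 ± 0.19 at 12 months and -0.56 ± 0.23 at 3 months, a difference of 1.38 ± 0.30. Ero1a was 1.20 ± 0.35 and -0.56 ± 0.40, Bnip3 1.31 ± 0.38 and -0.37 ± 0.44, and Ddit3 1.21 ± 0.43 and -0.35 ± 0.49. Mean levels of Ero1a were 104, 70.5, 28.9 and 66.2 CPM in WT 3M, Het 3M, WT 12M and Het 12M. In the same order Bnip3 was at 104, 80.3, 23.1 and 57 CPM, and Ddit3 at 58.15, 45.55, 21.6 and 49.9 CPM. WT 12M had the lowest mean of each. Het 3M S14 held 32.6 CPM of Bnip3 against 99.3 and 109 in S8 and S10, and WT 3M S12 held 112 CPM of Ddit3. The genes were ranked on the 12-month contrast, so a smaller value at 3 months follows in part from the ranking. Over whole lists, the median difference between the ages was 0.62 for the integrated stress response and 0.71 for hypoxia-induced genes, beside 0.08 over all genes tested. For osteoblast genes it was -0.98 and for cartilage genes -2.55. The cartilage median at 12 months alone was -0.81 without WT S7. Het S14 at 3 months held 21.9 CPM of Dmp1 and 27.4 CPM of Smpd3, both of the osteoblast list. Het S8 and S10 held 1.94 and 2.22 CPM of Dmp1, and 4.68 and 3.455 CPM of Smpd3. The part of single libraries in these medians was not tested.

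**Figure D5:**
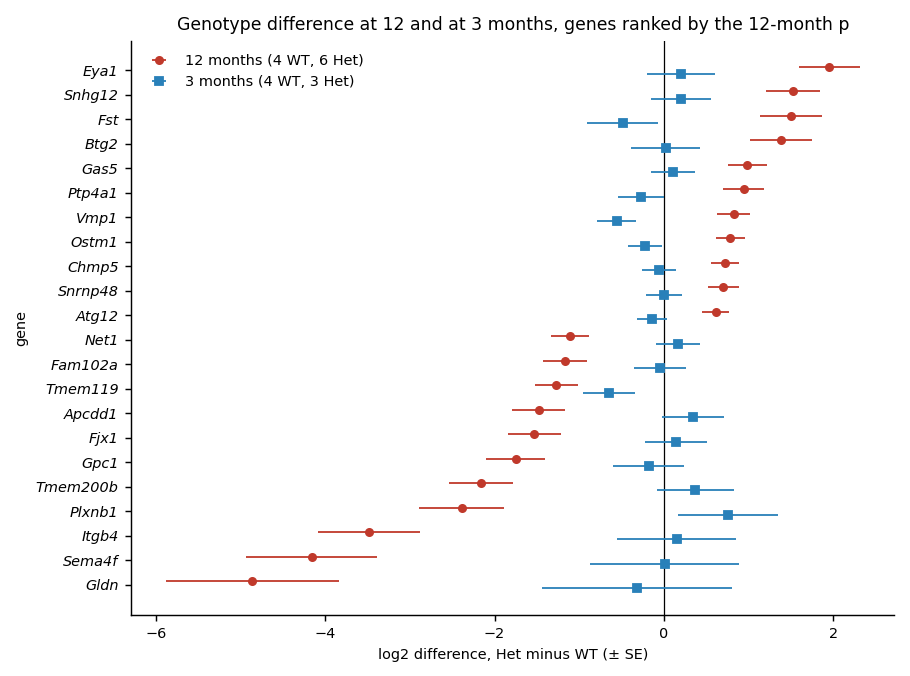
Log2 difference between Het and WT (± SE) at 12 months (circles) and at 3 months (squares) for 22 of the named genes. They were picked in each direction for the smallest p at 12 months, or the smallest worst p over the fits without single libraries. Each had at least 20 counts in each 12-month group. Genes named only as members of a list, such as Pth1r and Fkbp11, are not shown. Tmem200b, for example, stands at -2.16 ± 0.38 at 12 months and 0.37 ± 0.45 at 3 months.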

How the data were processed

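Total RNA of cultured cells was sequenced from TruSeq v2 libraries, per the labels, a kit that does not mark strand, so reads of overlapping and antisense genes cannot be told apart. The authors deposited whole-number counts per gene and lane, made with Subread and featureCounts on mm10, per the submitters' processing notes. The 4 lane columns of each library were summed. Identifiers were matched to RefSeq symbols (25275 of 27179), and the rest, 0.573% of counts, stayed in the totals.

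All 17 libraries in 4 groups entered 1 edgeR 4.0.16 quasi-likelihood fit (R 4.3.3, TMM scaling, filterByExpr, no sex term), with Benjamini-Hochberg adjustment over 14897 genes. CPM values are TMM-scaled, except those of Xist and the Y-linked genes, which are of each library's own total. No 2 libraries at 12 months agreed within sampling noise (lowest chi-square per degree of freedom 68.4). On simulated counts for this comparison (14744 genes) 87 of 100 genes changed by 2 on the log2 scale were recovered and 96 of 100 changed by 3, with 6 false calls. The changed genes were drawn from the better expressed ones, with the same dispersion in all groups and no library made to stand apart. These rates therefore do not cover weakly expressed genes or libraries that stand apart, as some do here. Alternatives were DESeq2 1.42.0, limma 3.58.1 voom, RLE and total scaling, other low-count filters, covariates, 1 lane, and fits without libraries. Named genes are Ezh2, the 12 in each direction with the smallest p or smallest worst p over the 10 fits without 1 library, the 4 of smallest p in each of 49 lists, and others of a pathway by role. Comparison and lists were chosen with earlier results of these data known. Promoters and coordinates come from RefSeq on GRCm38.p6, the same assembly as mm10, and 1451 of 1452 list symbols matched the counts.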

Additional observations from a re-analysis of the deposited data

Results flagged for a closer look

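In 22 of the 282 groups of samples examined, each 1 gene or list in 1 group, a single library lay apart from the others of its group by more than Dixon's 95% critical value (0.829 for the 4 WT and 0.625 for the 6 Het libraries, as the gap to the nearest library divided by the whole range of log2 CPM). Chance gives about 1 such library in 20 groups. Het S15 accounted for 7 of them and Het S9 for 6, the libraries with the fewest mitochondrial transcripts and the most macrophage transcripts.

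Het S9 stood high for Eya1 (ratio 0.703, 19.1 CPM), Cebpg (0.654, 72.6 CPM) and Fos (0.693, 658 CPM), for the lysosome list (0.711) and, on 1 count, for Otos (1.0), and low for Arnt2 (0.746, 11.5 CPM). Without it Eya1 was fitted at 1.58, Cebpg at 0.38 and Arnt2 at -0.92. Het S15 stood low for Slc7a11 (0.702, 1.11 CPM), Aldh1l2 (0.733, 4.12 CPM), Narf (0.648, 19.7 CPM) and Epha4 (0.651, 3.4 CPM). It stood high for the cyclin-dependent kinase inhibitors (0.653), the hosts of small nucleolar RNAs (0.672) and the cytosolic ribosomal proteins (0.626).

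Among the other libraries, WT S6 stood high for Sema4f (0.879), WT S7 high for Psph (0.851, 23.5 CPM) and P4ha1 (0.853, 311 CPM), and WT S13 low for Sema3b (0.93). Het S11 stood high for Fjx1 (0.667, 7.88 CPM) and low for the mitosis list (0.783), Het S1 high for Bnip3l (0.664, 130.4 CPM), Het S16 low for Atg3 (0.625, 73.3 CPM), and Het S17 high for Ppp1r1b on 1 count (1.0).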

How the results depend on the processing

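No paired analysis was possible because the replicate numbers shared in the labels are lanes of 1 library, and each library number occurs in 1 group only. The count of genes passing an adjusted p of 0.05 was 0 in edgeR under RLE or total scaling, other filters, covariates and 1 lane. It was 102 with DESeq2, 171 with voom and 0 to 2 with 1 library left out (1 without WT S7 and 2 without WT S13). Genes at an unadjusted p under 0.05 numbered 1246, and 3054 with voom, 732 with the 12-month libraries alone, 698 without WT S6 and S7, and 964 to 1960 with 1 library left out (1960 without Het S15). The higher share of these genes was 41.1% and lay between 36.5% with total scaling and 46.1% with DESeq2. Genes without overlap numbered 197, and 231 to 539 with 1 library left out and 1516 without WT S6, Het S9 and Het S15, where fewer samples leave less to overlap. The difference between ages was called in 36 genes by DESeq2 and 939 by voom.

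The sign of Ezh2 reversed to 0.21 with voom, 0.05 with a myeloid term, 0.08 without WT S6, Het S9 and Het S15, 0.22 without WT S6 and S7, and up to 0.29 with 1 library left out (WT S6). With 1 library left out, Suz12 reversed to -0.01 (Het S1), and list medians ranged from -0.07 (Het S15) to 0.42 for oxidative phosphorylation, -0.12 (Het S15) to 1.22 for interferon, -0.47 (Het S9) to 3.18 for macrophage markers and -0.65 to 0.30 (WT S6) for mitosis. Without WT S6, Het S9 and Het S15, Ptch1 reversed to 0.14, and oxidative phosphorylation, mitosis, interferon, class I and macrophage lists to -0.10, 0.04, -0.52, -0.80 and -0.56. Mitosis was 0.03 without WT S6 and S7, and voom gave 0.29, -0.43 and -0.46 for mitosis, interferon and class I. The cause was not tested. Of the remaining values for genes and lists, 3103 were counted as the same and 4 list medians as moved. For a gene, the same meant an unchanged direction and side of the threshold. For a list it meant a move smaller than the larger within-group standard deviation of its mean log2 CPM. A change of sign was counted only in lists with at least 75% of members on 1 side, so other list medians among the 3103 could change sign. A further 75 gene values passed the threshold under another setting, 40 of them with DESeq2 and 32 with voom. With 4 WT and 6 Het libraries and a biological coefficient of variation of 0.512, differences under 2 on the log2 scale lie below those simulated.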
